A study of Mus musculus with 9 samples.

Results

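The calcium release channel of skeletal muscle and the voltage-gated calcium channel that opens it were examined through 10 genes in the gastrocnemius, a calf muscle, of newborn mice. The set held the ryanodine receptors *Ryr1*, *Ryr2* and *Ryr3*, the pore-forming subunits *Cacna1s*, *Cacna1c* and *Cacna1d*, the auxiliary subunits *Cacnb1*, *Cacna2d1* and *Cacng1*, and the adaptor *Stac3*. These were the rows of the count table that carry those symbols, 10 of 55471 listed gene IDs.

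RNA was sequenced at postnatal day 0 to 1, with 1 library per mouse, from 5 mice of the genotype *Shank3Δ11(−/−)* and 4 of the genotype *Shank3(+/+)*. All were labelled C57BL/6. According to the methods, the *Shank3Δ11(−/−)* mice came from heterozygous C57BL/6JRj matings, while the wild types were given as C57BL/6 with no substrain. The *Shank3Δ11(−/−)* mice are homozygous for a loss of exon 11 of the postsynaptic scaffold gene *Shank3*. The study kept KO1, KO3 and KO5 and the 4 wild types WT1 to WT4 and left out KO2 and KO4 for too few reads, so genotypes were compared over these 7 mice and again over all 9.

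In a twitch fibre, depolarisation of the transverse tubule moves the voltage sensor of the dihydropyridine receptor, whose pore is encoded by *Cacna1s*. The sensor opens Ryr1 in the facing membrane of the sarcoplasmic reticulum by direct coupling, and stored calcium flows out and starts contraction. In the heart the related pore Cacna1c instead lets calcium in, and this calcium opens Ryr2. Ryr3 is best known in skeletal muscle from the time around birth and declines later in most limb muscles.

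Totals ranged from 26444372 to 40471957 counts per library with a median of 31435732. The library of KO4 was the deepest, and that of KO2, at 28211941, lay above that of KO5, which was the lowest. The shortage of reads stated for KO2 and KO4 thus does not show in these gene counts. Mitochondrial genes took 3.81% to 7.88% of the counts. The labelled tissue was checked against 12 myofibre markers, all of which passed 1 CPM in every mouse, with summed levels between 62490 and 70415 CPM. *Shank3* itself lay between 29.3 and 34.4 CPM in KO1, KO3 and KO5 and between 32.4 and 38.5 CPM in *Shank3(+/+)*, and a count over the whole gene does not check the loss of 1 exon. Genes of the Y chromosome, summed, were at 190 to 248 CPM in KO1, KO2, KO4, WT1 and WT2 and at most 0.423 CPM in KO3, KO5, WT3 and WT4. Nothing in the sources used here ties the libraries to litters or preparation days, so p-values measure the spread between these mice.

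Levels are given in CPM, counts relative to the total of the library with TMM scaling, which corrects for differences in composition. To compare levels between genes, CPM was divided by exon length in kilobases (CPM per kb), and undivided CPM and count ratios serve to compare mice. By this measure *Cacng1*, the small γ1 subunit that damps the channel current, was highest with a median of 160 CPM per kb over the 9 mice. *Stac3*, which carries the pore to the triad junction, followed at 35.9, and *Cacnb1*, the intracellular β1 subunit that places the pore opposite Ryr1, at 33.0 CPM per kb. The median of *Ryr1* was 32.1, that of *Cacna1s* 29.3 and that of *Cacna2d1*, the extracellular α2δ1 subunit, 23.8 CPM per kb. These 5 genes did not separate from their neighbours in the order: each range overlapped the next, and the higher gene of a pair was higher in 7 of 9 mice for the first 3 pairs and in 8 of 9 for *Cacna1s* over *Cacna2d1*. The other members lay apart, at 3.81 for *Ryr3*, 0.641 for *Cacna1c*, 0.383 for *Cacna1d* and 0.0431 CPM per kb for *Ryr2*. Each of these was below the gene before it in 9 of 9 mice, with no overlap of ranges. With the longest coding transcript as the length, the median of *Stac3* was 51.1, that of *Ryr1* 45.7 and that of *Cacnb1* 44.0. *Cacna2d1* was then at 39.7 and *Cacna1s* at 30.7, so the order within these 5 genes depends on the length used. In bulk tissue, fewer cells of a type and less RNA per cell cannot be told apart.

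**Figure D1:**
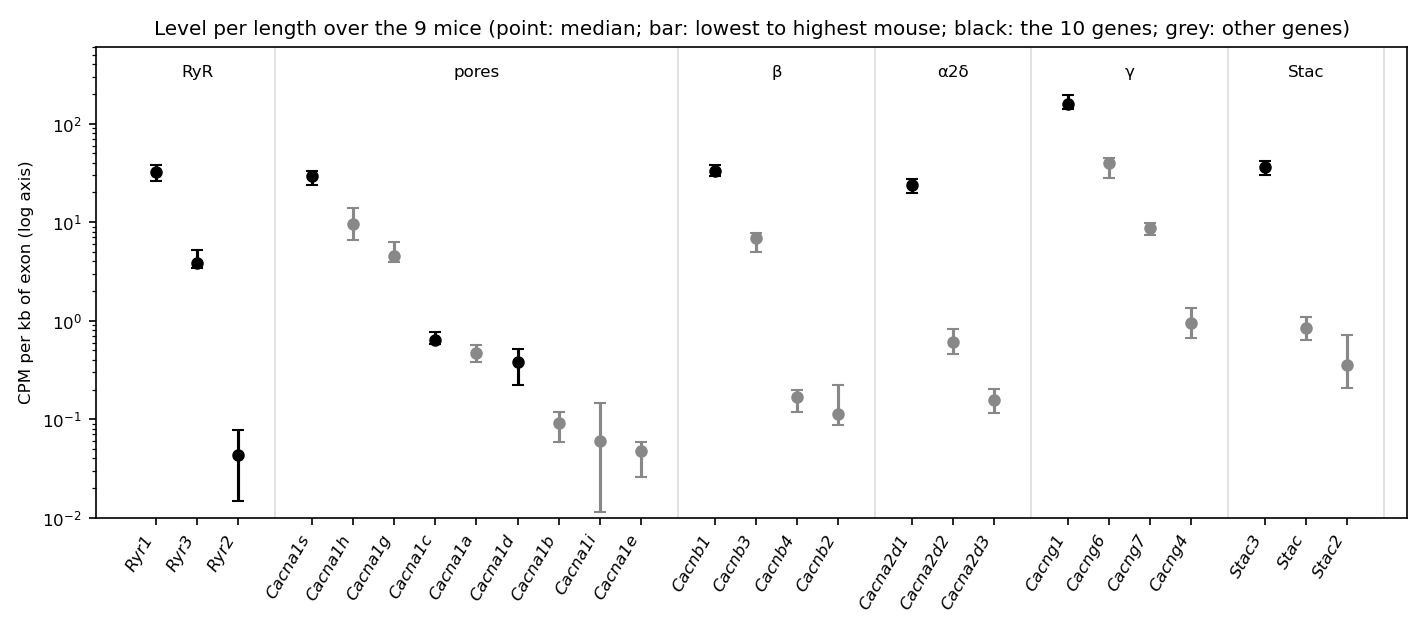
Level per length, in CPM per kb of exon on a log axis, of the 10 genes (black) and of their relatives in the same families (grey), with the median over the 9 mice as a point and the lowest and highest mouse as a bar. Cacng1 stood at 160 CPM per kb, 5 members fell between 23.8 and 35.9, and Ryr2 was lowest at 0.0431.

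*Ryr1* (ENSMUSG00000030592, chromosome 7 from 29003344 to 29125179, minus strand, mm10) encodes the release channel of skeletal muscle and took 18300 to 26825 counts per library. Its level was 573 CPM in KO1, 681 in KO2, 830 in KO3, 705 in KO4 and 701 in KO5, and 567, 612, 753 and 776 CPM in WT1 to WT4. KO3 was highest of all and KO1 lay beside the lowest wild type, so the genotypes overlapped throughout. The mean over KO1, KO3 and KO5 was 702 ± 129 CPM (SD, n = 3), and over the wild types 677 ± 103 CPM (SD, n = 4). The log2 fold change in the 7 mice was 0.04 with a 95% interval from -0.31 to 0.40 (quasi-likelihood test in edgeR, p = 0.798, FDR = 1.00, exact permutation p = 0.771). FDR is the Benjamini-Hochberg adjusted p over all genes tested, and the permutation test was 2-sided on log2 CPM.

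*Ryr3* (ENSMUSG00000057378, chromosome 2 from 112631355 to 113217096, minus strand) encodes the isoform that opens to calcium rather than to the voltage sensor. It had 65.5, 85.5, 99.1, 69.7 and 72.3 CPM in KO1 to KO5 and 70.1, 68.8, 94.5 and 75.4 CPM in WT1 to WT4. Both groups held 1 mouse near the top, KO3 and WT3, and the other mice of both groups overlapped. Its log2 fold change was 0.03 (95% interval -0.33 to 0.38, edgeR, p = 0.880, FDR = 1.00, exact permutation p = 0.857).

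*Ryr2* (ENSMUSG00000021313, chromosome 13 from 11553102 to 12106945, minus strand), the release channel of the heart, took only 13 to 59 counts per library. The values were 0.876, 1.09, 1.29, 1.52 and 2.24 CPM in KO1 to KO5 and 1.42, 1.24, 0.785 and 0.423 CPM in WT1 to WT4. KO5 was highest and WT4 lowest, and the other mice of both genotypes were mixed. The log2 fold change of 0.58 had a wide 95% interval, from -0.35 to 1.51 (edgeR, p = 0.196, FDR = 1.00, exact permutation p = 0.343), and with single mice left out it ran from 0.15 without KO5 to 0.85 without KO1. With the replicate number as a block it was -0.02, although the numbers were not taken to pair the mice. Of 11 heart markers, *Nppa*, *Nppb*, *Myl7*, *Tbx20* and *Nkx2-5* were each at most 0.338 CPM in any mouse, with the last 4 at 0 counts in some mice. *Myh6*, the α myosin heavy chain of the heart, was at 138 to 300 CPM. It had the only edgeR p under 0.05 among the 6 genes of the list that were tested, beside 2.08% of all genes tested. Its log2 fold change was -0.64 (FDR = 1.00). With KO2 and KO4 this was -0.41, and by edgeR 0 genes of the list then had an unadjusted p under 0.05. *Tnni3* was at 1.66 to 4.02 and *Hand2* at 1.82 to 4.61 CPM. The genes of that list together, which include *Ryr2* and the calsequestrin *Casq2* of young muscle, summed to 948 to 1486 CPM in KO1, KO3 and KO5 and 1361 to 1778 CPM in *Shank3(+/+)*. Smooth muscle and nerve cells can also carry *Ryr2*. The 9 smooth muscle and pericyte markers summed to 955 to 1135 CPM in KO1, KO3 and KO5 and 984 to 1054 CPM in *Shank3(+/+)*, and the 8 neuron markers to 11.3 to 17.2 and 12.8 to 15.3 CPM with *Chat* at 0 counts in all 9 libraries, which allows up to 0.0105 CPM. KO5, the mouse highest in *Ryr2*, had the highest sum of the 9 mice in both lists, at 1135 and 17.2 CPM. It was also highest in the sum of 5 adipocyte markers, at 1126 CPM beside 381 in KO1, 289 in KO3 and 211 to 289 CPM in *Shank3(+/+)*, and in that of 6 Schwann cell markers, at 694 beside 417 in KO1, 389 in KO3 and 300.3 to 406 CPM in *Shank3(+/+)*. KO1, the lowest *Shank3Δ11(−/−)* mouse in *Ryr2*, thus lay above every wild type in these last sums and was the lowest of all 9 mice in the neuron sum. Their part in the level of *Ryr2* was not tested.

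The stretches just upstream of the gene start are printed for *Ryr1* and *Ryr2*, the ends of the receptor order by level, and for *Cacna1s*, the pore of skeletal muscle, so that the regulatory sequence stands beside the levels. They are from RefSeq (GRCm38.p6), on the strand of the gene, 5′ to 3′, and end before the first annotated transcribed base. That of *Ryr1* is chr7:29125180-29125401 on the minus strand, that of *Ryr2* chr13:12106946-12107195 on the minus strand, and that of *Cacna1s* chr1:136052561-136052749 on the plus strand. Capitals mark E-boxes, the motif CANNTG that reads as the same pattern on both strands and is bound by the myogenic factors among others.
Ryr1: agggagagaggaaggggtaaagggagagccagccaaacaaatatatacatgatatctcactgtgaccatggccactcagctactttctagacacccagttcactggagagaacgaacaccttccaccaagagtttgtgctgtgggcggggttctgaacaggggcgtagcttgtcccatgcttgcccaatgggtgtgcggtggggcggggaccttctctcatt
Ryr2: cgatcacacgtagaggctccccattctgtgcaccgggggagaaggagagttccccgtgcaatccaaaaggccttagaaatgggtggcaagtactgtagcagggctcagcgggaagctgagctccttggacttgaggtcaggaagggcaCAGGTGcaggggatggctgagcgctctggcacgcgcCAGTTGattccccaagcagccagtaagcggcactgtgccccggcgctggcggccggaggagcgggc
Cacna1s: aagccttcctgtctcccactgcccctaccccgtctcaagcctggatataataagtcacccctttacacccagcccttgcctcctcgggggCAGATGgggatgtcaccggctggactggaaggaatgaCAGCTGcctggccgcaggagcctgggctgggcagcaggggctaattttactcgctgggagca
The stretch of *Ryr1*, 222 bases long, holds 0 E-boxes, that of *Ryr2*, the receptor at the lowest level, holds 2 in 250 bases, and that of *Cacna1s* holds 2 in 189 bases. Over 32851 promoters of 250 bases in the same table, 66.2% hold at least 1 E-box, so both its presence and its absence are common. RefSeq promoter entries were at hand for 7 of the 10 genes, 11 entries in all, and none had a match on either strand to the MEF2 consensus (2.92% of all promoters) or to the CArG box (1.47%). The letters TATAAA, found on either strand in 12.4% of all promoters, occurred in 1 of 2 entries of *Cacna1d* and in none of the other members' entries. Such a match is a description of the letters in this window.

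The receptor genes were set against each other within each library, where library scaling cancels. Per kb of exon, *Ryr1* made up 87.3% to 89.9% of the 3 receptors over the 9 mice, *Ryr3* 10.05% to 12.6% and *Ryr2* 0.0371% to 0.216%. The share of *Ryr1* averaged 88.4% ± 0.693 (SD, n = 3) over KO1, KO3 and KO5 and 88.3% ± 1.21 (SD, n = 4) over WT1 to WT4. Dividing by the longest coding transcript in place of all exons gave *Ryr1* 88.8% to 91.2%. As a ratio of counts, *Ryr1* to *Ryr3* was 8.74, 7.96, 8.38, 10.1 and 9.69 in KO1 to KO5 and 8.10, 8.89, 7.96 and 10.3 in WT1 to WT4. The groups covered the same range, and the log2 difference was 0.03 (2-sided exact permutation test, p = 0.829, adjusted p = 0.914 over 8 ratios). The ratio of *Ryr1* to *Ryr2* ran from 313 in KO5 to 1837 in WT4, with a log2 difference of -0.59 between genotypes (exact permutation test, p = 0.486, adjusted p = 0.876) that ran from -0.17 without WT4 to -0.91 without WT1 when single mice were left out.

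**Figure D2:**
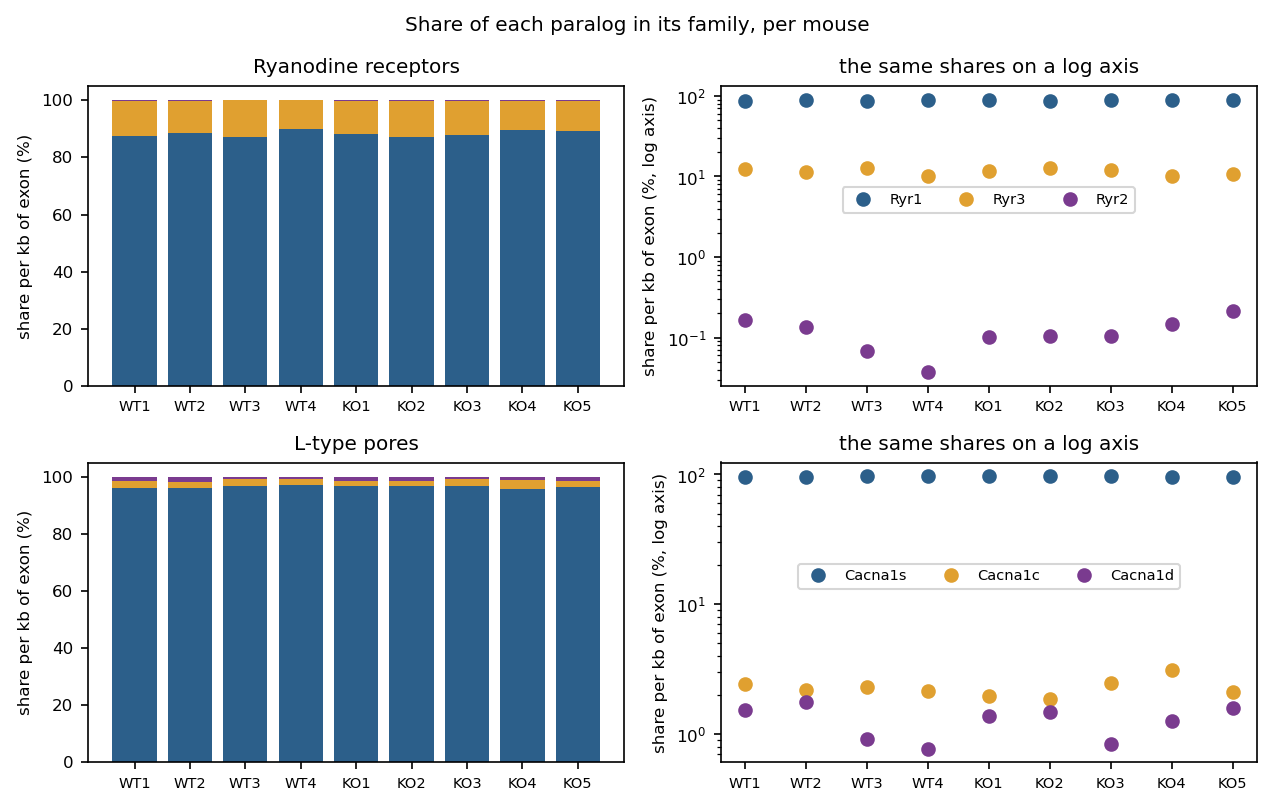
Share of each paralog per kb of exon in every mouse, in percent, for the ryanodine receptors (top) and the L-type pores (bottom), as stacked bars on a linear axis and as points on a log axis. Ryr1 held 87.3% to 89.9% and Cacna1s 95.6% to 97.1% in the 9 mice. Ryr2, from 0.0371% to 0.216%, varied most as a fold though least in percentage points.

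*Cacna1s* (ENSMUSG00000026407, chromosome 1 from 136052750 to 136119822, plus strand) encodes the pore and voltage sensor of the skeletal muscle channel. Its level was 192, 216, 197, 156 and 205 CPM in KO1 to KO5 and 158, 166, 197 and 185 CPM in WT1 to WT4. KO1, KO3 and KO5 lay close together near the top of the wild types, while KO4 was the lowest mouse of all and KO2 the highest. KO1, KO3 and KO5 averaged 198 ± 6.37 CPM (SD, n = 3), and the wild types 177 ± 17.5 CPM (SD, n = 4). The log2 fold change of 0.15 had a 95% interval from -0.08 to 0.39 (edgeR, p = 0.181, FDR = 1.00, exact permutation p = 0.171), and with KO2 and KO4 it was 0.13 (edgeR, p = 0.257, FDR = 1.00, exact permutation p = 0.278). An antisense gene, *Gm37759*, overlaps 1309 of the 6550 bp of exon, 20.0%, and took 1277 to 2171 counts. Without knowledge of strand, reads of this stretch cannot be assigned with certainty, and with both genes summed the log2 fold change was 0.18.

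*Cacna1c* (ENSMUSG00000051331, chromosome 6 from 118587240 to 119196418, minus strand), the L-type pore of heart and smooth muscle, had 12.7, 13.6, 16.4, 16.4 and 14.5 CPM in KO1 to KO5 and 12.9, 12.3, 15.1 and 13.3 CPM in WT1 to WT4. KO3 and KO4 lay above every wild type and the other mice were mixed. Its log2 fold change was 0.11 (95% interval -0.19 to 0.41, edgeR, p = 0.449, FDR = 1.00, exact permutation p = 0.400), and with single mice left out it ran from 0.01 without KO3 to 0.20 without KO1. *Cacna1d* (ENSMUSG00000015968, chromosome 14 from 30039939 to 30491455, minus strand), an L-type pore of nerve, sinoatrial and endocrine cells that opens at lower voltage, had 5.29, 6.41, 3.27, 3.99 and 6.49 CPM in KO1 to KO5 and 4.83, 5.91, 3.58 and 2.83 CPM in WT1 to WT4. High and low mice occurred in both genotypes, over a 2.29-fold range. Its log2 fold change of 0.21 (95% interval -0.42 to 0.85, edgeR, p = 0.468, FDR = 1.00, exact permutation p = 0.514) moved with single mice, to -0.01 without KO5 and 0.06 without WT4, and to 0.45 without KO3 and 0.41 without WT2.

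Among the L-type pores, *Cacna1s* took 95.6% to 97.1% of the counts per kb of exon in the 9 mice. *Cacna1c* took 1.87% to 3.12% and *Cacna1d* 0.770% to 1.77%. With the longest coding transcript as the length, *Cacna1s* held 93.6% to 95.7%, *Cacna1c* 2.83% to 4.69% and *Cacna1d* 1.05% to 2.41%, so the order was the same by both lengths. The count ratio of *Cacna1s* to *Cacna1c* was 15.1, 15.9, 12.0, 9.48 and 14.1 in KO1 to KO5 and 12.3, 13.6, 13.02 and 13.9 in WT1 to WT4. The wild types were close together and the *Shank3Δ11(−/−)* mice spread to both sides of them. The log2 difference was 0.06 in the 7 mice (exact permutation test, p = 0.571, adjusted p = 0.876). For *Cacna1s* to *Cacna1d* it was -0.06 (exact permutation test, p = 0.914, adjusted p = 0.914).

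*Cacnb1* (ENSMUSG00000020882, chromosome 11 from 98001508 to 98023034, minus strand) had 149, 167, 162, 136 and 146 CPM in KO1 to KO5 and 134, 143, 160 and 173 CPM in WT1 to WT4. The groups covered the same range, and the means were 153 ± 8.37 CPM (SD, n = 3) and 152 ± 17.5 CPM (SD, n = 4). Its log2 fold change was -0.01 (95% interval -0.26 to 0.25, edgeR, p = 0.955, FDR = 1.00, exact permutation p = 0.971), the smallest in size of the 10. *Cacna2d1* (ENSMUSG00000040118, chromosome 5 from 15934691 to 16374511, plus strand), which aids the transport and gating of the pore, had 327, 305, 277, 268 and 278 CPM in KO1 to KO5 and 296, 316, 340 and 248 CPM in WT1 to WT4. The highest and the lowest mouse, WT3 and WT4, were both wild types. Its log2 fold change was -0.04 (95% interval -0.31 to 0.24, edgeR, p = 0.784, FDR = 1.00, exact permutation p = 0.886).

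*Cacng1* (ENSMUSG00000020722, chromosome 11 from 107703218 to 107716522, minus strand) had 213, 199, 225, 196 and 219 CPM in KO1 to KO5 and 177, 193, 196 and 242 CPM in WT1 to WT4. The *Shank3Δ11(−/−)* mice lay inside the range set by WT1 and WT4. Its log2 fold change was 0.11 (95% interval -0.16 to 0.38, edgeR, p = 0.391, FDR = 1.00, exact permutation p = 0.314). It was 0.21 without WT4 and 0.06 without WT1.

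*Stac3* (ENSMUSG00000040287, chromosome 10 from 127501686 to 127508823, plus strand) is needed for the pore to reach the triad and to couple to Ryr1. Its level was 91.4, 106, 82.1, 75.7 and 89.9 CPM in KO1 to KO5 and 99.4, 107, 90.2 and 103 CPM in WT1 to WT4. KO1 and WT3 crossed by a narrow margin in the 7 mice, and KO2 lay among the highest wild types. KO1, KO3 and KO5 averaged 87.8 ± 5.00 CPM (SD, n = 3), below the wild types at 99.8 ± 7.04 CPM (SD, n = 4). The log2 fold change of -0.19 had a 95% interval from -0.42 to 0.03 (edgeR, p = 0.0828, FDR = 1.00, exact permutation p = 0.0857, where the smallest possible is 0.0286). This was the lowest edgeR p of the 10 genes. On library totals without TMM the genotypes did not overlap for *Stac3*, lower in *Shank3Δ11(−/−)*, beside 1.8% of all genes tested in that direction. With KO2 and KO4 the log2 fold change was -0.16 (edgeR, p = 0.139, FDR = 1.00, exact permutation p = 0.151).

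**Figure D3:**
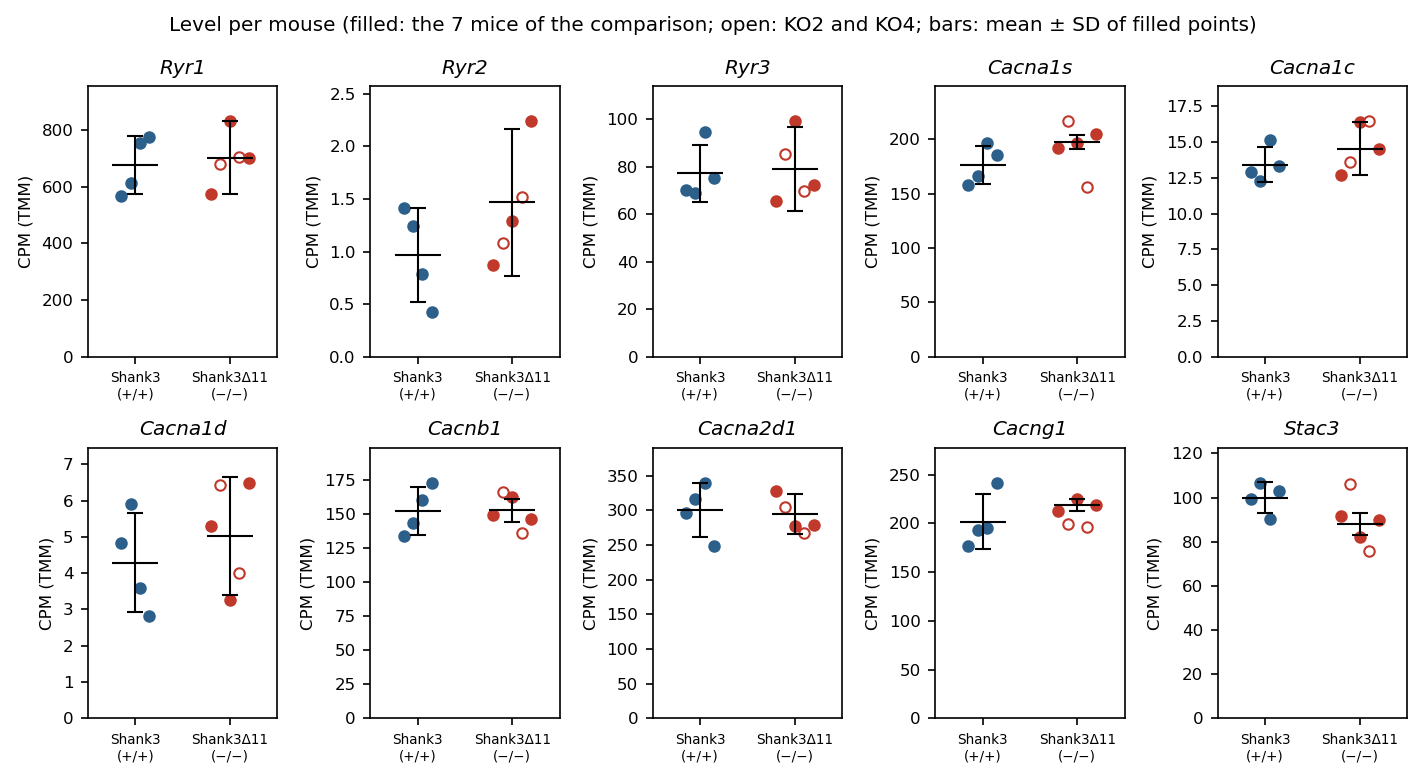
Level of each of the 10 genes per mouse in CPM on a linear axis from 0, with filled points for the 7 mice compared, open points for KO2 and KO4, and mean ± SD of the filled points. The genotypes overlap in every panel. For Stac3 the filled points overlap only between WT3 at 90.2 and KO1 at 91.4 CPM, while the open point of KO2 lies at 106 CPM.

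For the genotype comparison as a whole, all 10 genes passed the filter on low counts. By edgeR 0 of them reached an unadjusted p under 0.05, beside 2.08% of the 21809 genes tested. With KO2 and KO4 the count was again 0, beside 2.03% of 21735 genes. With the study's criterion, p below 0.05 with an FDR below 25%, applied to the edgeR test, 0 of the 10 genes and 0% of all genes tested were called. The study used limma and did report differentially expressed genes by this criterion. The paper gave DHPR, RyR and CACNA1D among the genes significantly raised in *Shank3Δ11(−/−)*. DESeq2 called 6 genes of the whole table and limma-voom 0, and by either tool 0 of the 10 had an unadjusted p below 0.05. In none of the 10 did the genotypes separate completely in the 7 mice, beside 2.83% of all genes, nor in the 9 mice, beside 0.681%. Of the fold changes, 7 were above 0 and 3 below, with a median log2 fold change of 0.07 beside -0.01 over all genes tested. The intervals set what these mice could show. For *Ryr1* they reach from -0.31 to 0.40 and for *Cacna1s* from -0.08 to 0.39 on the log2 scale, and values inside these bounds are not told apart by 3 against 4 mice.

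**Figure D4:**
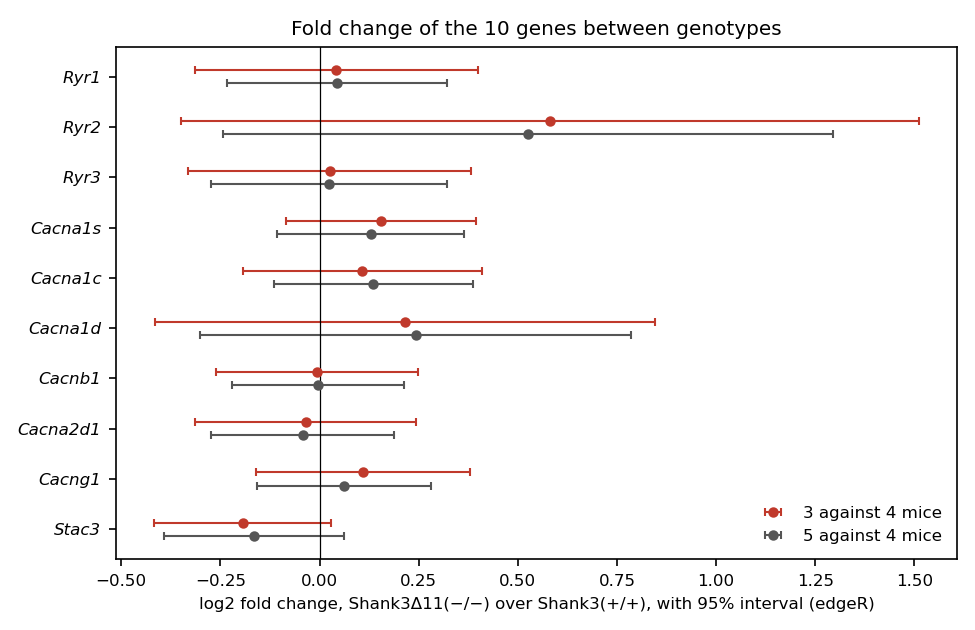
Log2 fold change of each gene, *Shank3Δ11(−/−)* over *Shank3(+/+)*, with its 95% interval from edgeR, for 3 against 4 mice (red) and 5 against 4 mice (grey). Every interval includes 0, the widest is that of Ryr2 (-0.35 to 1.51), and that of Stac3 reaches least above 0 (-0.42 to 0.03).

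The make-up of the voltage-gated channel was then compared as ratios of counts to *Cacna1s* within a library. For *Stac3* this ratio was 0.476, 0.490, 0.417, 0.486 and 0.439 in KO1 to KO5 and 0.628, 0.641, 0.458 and 0.556 in WT1 to WT4. All 5 *Shank3Δ11(−/−)* mice lay below WT1, WT2 and WT4, and WT3 fell among them. The log2 difference was -0.35 in the 7 mice (exact permutation test, p = 0.0857, adjusted p = 0.343 over 8 ratios). In the 9 mice it was -0.30 (exact permutation test, p = 0.0476, adjusted p = 0.381), which does not pass the correction. Whether reads of the antisense gene are among the counts of *Cacna1s* is not known, and their part in this ratio was not tested.

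For *Cacnb1* the ratio to *Cacna1s* was 0.779, 0.769, 0.824, 0.871 and 0.716 in KO1 to KO5 and 0.844, 0.861, 0.814 and 0.934 in WT1 to WT4. WT3 lay below KO3 and KO4, and the other wild types were above KO1, KO2, KO3 and KO5. The log2 difference was -0.16 (exact permutation test, p = 0.0857, adjusted p = 0.343), and in the 9 mice -0.13 (exact permutation test, p = 0.111, adjusted p = 0.444). Without KO5 it was -0.11. *Cacng1* to *Cacna1s* ran from 0.922 to 1.31 with a log2 difference of -0.04 (exact permutation test, p = 0.657, adjusted p = 0.876). *Cacna1s* to *Ryr1*, the sensor against the release channel, was 0.335, 0.318, 0.237, 0.221 and 0.292 in KO1 to KO5 and 0.279, 0.272, 0.262 and 0.238 in WT1 to WT4. The *Shank3Δ11(−/−)* mice reached both above and below the wild types, and the log2 difference was 0.12 (exact permutation test, p = 0.429, adjusted p = 0.876). It was 0.0041 without KO1 and 0.25 without KO3.

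**Figure D5:**
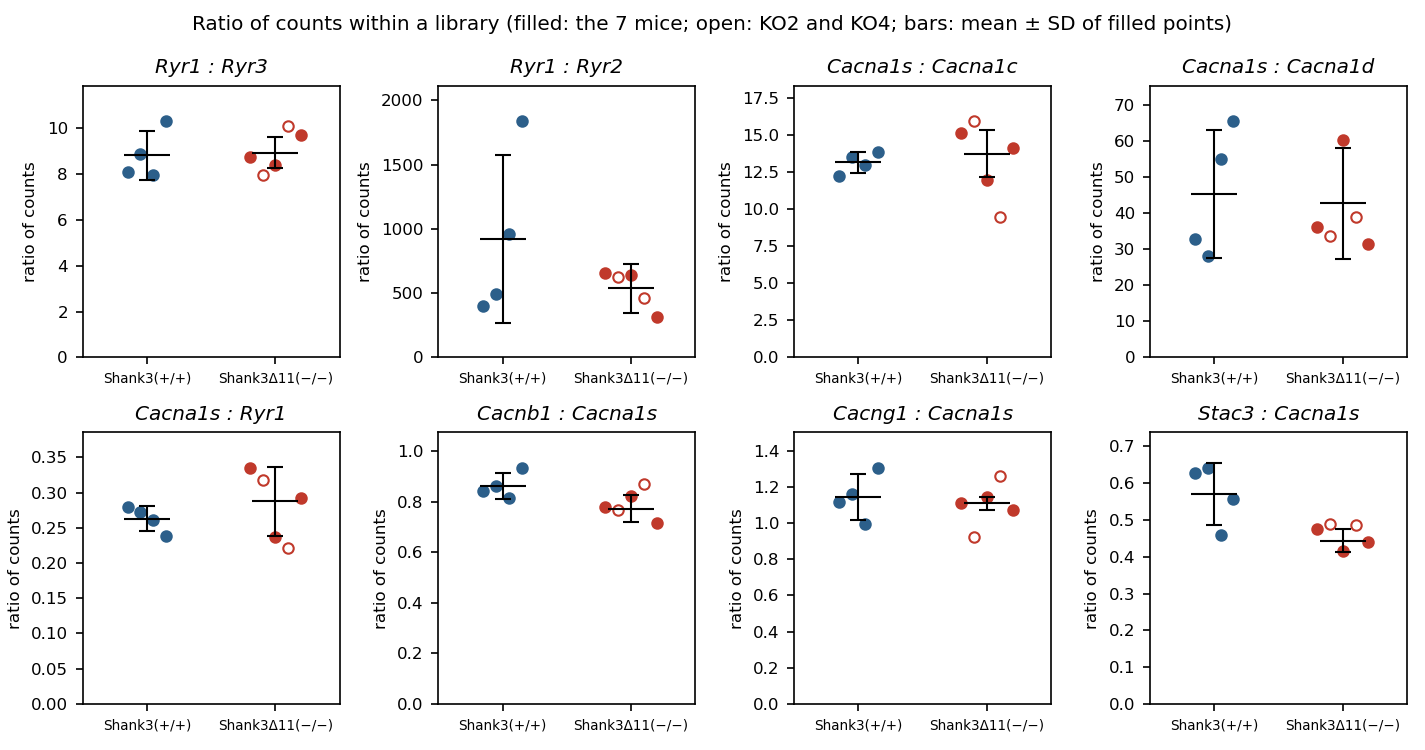
Ratio of the counts of 2 genes within each library for 8 pairs, on linear axes from 0, with filled points for the 7 mice compared, open points for KO2 and KO4, and mean ± SD of the filled points. In the panel of Stac3 to Cacna1s the Shank3Δ11(−/−) mice sit between 0.417 and 0.490 and the Shank3(+/+) mice between 0.458 and 0.641.

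Libraries with high and with near-zero counts on the Y chromosome were also set side by side, since this division crosses the genotypes. In the 7 mice, *Ryr1*, *Ryr3* and *Cacna1c* did not overlap between KO3, KO5, WT3 and WT4, whose Y-linked sum was at most 0.423 CPM, and KO1, WT1 and WT2, where it was at least 235 CPM. That is 3 of 10 genes beside 15.8% of all genes tested, and each was higher in the libraries of near-zero Y-linked counts. When KO2 and KO4 joined the mice of high Y-linked counts, 0 of the 10 separated, beside 2.36% of all genes. *Ryr1* then spanned 567 to 705 CPM in 5 mice and 701 to 830 CPM in 4. With the Y-linked level as a covariate, 0 of the 10 genes reached an unadjusted p under 0.05 between genotypes by edgeR, beside 2.73% of all genes in that fit.

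The other voltage-gated pores were looked at as a list of 7 genes, 6 of which passed the filter. By edgeR 0 of these reached an unadjusted p under 0.05, beside 2.08% of all genes tested. Of their fold changes, 2 were above 0 and 4 below in the 7 mice, and 5 above and 1 below in the 9. With the most counts were the T-type pores *Cacna1h* (median 94.4 CPM) and *Cacna1g* (45.5 CPM), which open near the resting potential and are known from developing muscle, and the P/Q-type pore *Cacna1a* of nerve terminals (5.41 CPM). Per kb of exon *Cacna1h* reached 9.67 and *Cacna1g* 4.48 CPM, below *Cacna1s* and above *Cacna1c* in all 9 mice. *Cacna1h* ran from 64.2 CPM in KO4 to 136 CPM in KO2, and the mice compared were at 94.4 ± 4.08 CPM (SD, n = 3) and 95.6 ± 20.5 CPM (SD, n = 4).

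Of 15 other auxiliary subunits and Stac genes, 10 passed the filter and 0 had an unadjusted p below 0.05, beside 2.08% of all genes tested. Their fold changes were above 0 in 7 and below in 3 in the 7 mice, and 6 above and 4 below in the 9. With the most counts were the γ subunits *Cacng6* (median 79.2 CPM) and *Cacng7* (21.2 CPM) and the β subunit *Cacnb3* (27.5 CPM). Each family was led by its muscle member per kb of exon: *Cacng1* at 160 over *Cacng6* at 40.1 CPM, *Cacnb1* at 33.0 over *Cacnb3* at 6.85, *Cacna2d1* at 23.8 over *Cacna2d2* at 0.606, and *Stac3* at 35.9 over *Stac* at 0.849. The ranges of these pairs did not overlap over the 9 mice.

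A list of 23 partners of the ryanodine receptors held luminal calcium buffers, junction proteins, calmodulins and kinase anchors. All 23 passed the filter, 12 with a fold change above 0 and 11 below in the 7 mice and 13 above and 10 below in the 9. An unadjusted p under 0.05 by edgeR was reached by 0 of them, beside 2.08% of all genes tested. The median log2 fold change of the list was 0.01 beside -0.01 over all genes tested. With the most counts were sarcalumenin *Srl* (median 1251 CPM) and the calsequestrins *Casq2* (1136 CPM) and *Casq1* (824 CPM), which bind calcium in the lumen of the sarcoplasmic reticulum. Per kb of exon the order by median was *Casq1* at 422, *Casq2* at 415, the kinase subunit *Prkaca* at 301 and *Srl* at 235 CPM per kb. The range of *Casq2* over the 9 mice, 293 to 540, spanned that of *Casq1*, 382 to 470, so these calsequestrins were not separated. *Casq2* lay at 1227, 1170 and 801 CPM in KO1, KO3 and KO5 and at 1136, 1131, 1479 and 1273 CPM in WT1 to WT4. KO5 was lowest and the other mice overlapped (log2 fold change -0.24, edgeR, FDR = 1.00).

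The genes most like *Ryr1*, *Ryr3*, *Cacna1s* and *Cacna1d* in level over the 9 mice were found by Pearson's r of log2 CPM among 21735 genes. For *Ryr1* these were *Rabggta* (r = 0.990), *Gm5620* (r = 0.988) and *Gm5487* (r = 0.985), the last 2 annotated as processed pseudogenes. For *Ryr3* they were *Acad9* (r = 0.966), *Med1* (r = 0.957) and the antisense gene *Gm11192* (r = 0.952), for *Cacna1s* *Gm45883* (r = 0.927), *Akt2* (r = 0.923) and *Mmp15* (r = 0.921), and for *Cacna1d* *Engase* (r = 0.978), *Rbks* (r = 0.969) and *Gm30122* (r = 0.962). The points share library, depth and scaling, and the highest of many values is high by selection, so these are a description only.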

How the data were processed

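The counts, as deposited, are the authors' reads per Ensembl gene. HISAT2 2.2.1 was the aligner, mm10 the build and featureCounts 2.0.1 the counter according to the study's methods. Which annotation release was used, whether the kit kept strand and how multiply mapped reads were handled is not given in the sources used here. GENCODE M21 gave symbols, positions and exon lengths for 55230 of 55471 IDs. Of these IDs, 16836 had no count.

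edgeR 4.0.16 in R 4.3.3 was run with TMM, filterByExpr (minimum count 10, total 15) and the robust quasi-likelihood test, with Benjamini-Hochberg adjustment over all genes tested. Single levels and ratios were tested with 2-sided exact permutation tests (log2 CPM with prior count 2), which can reach 0.0286 at the lowest with 7 mice and 0.00794 with 9. The tests were tried on simulated counts. Alternatives were all 9 mice, other scalings, no filter, DESeq2 1.42.0, limma-voom 3.58.1, replicate blocks, covariates, a prior count of 0.5, 0.5 added to both counts of a ratio, and each mouse left out. The summed counts of *Cacna1s* with its antisense gene, and the Y-linked covariate in 9 mice, were added after seeing the data. The members and lists were chosen with earlier results of these data known. Named beside the 10 genes were *Shank3*, of each list of other pathway genes those with p below 0.05 or else the 3 of highest CPM, and the 3 genes most like each of 4 members. Other single genes were named after their values were seen. Figures were drawn with matplotlib 3.10.9.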

Additional observations from a re-analysis of the deposited data

Results flagged for a closer look

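In 36 groups of 4 or 5 values examined, 1 held a value far from the rest, where chance gives about 1 in 20. The count ratio of *Cacna1s* to *Cacna1d* was 60.2 in KO3 and between 31.5 and 39.1 in the other *Shank3Δ11(−/−)* mice. In *Shank3(+/+)* the same ratio reached 54.9 in WT3 and 65.4 in WT4. Its cause was not tested.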

How the results depend on the processing

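For the 10 genes, 0 had an unadjusted p below 0.05 under each of the 19 alternatives of the edgeR comparison. The number of genes called in the whole table was 0, and became 1 without the filter on low counts, 6 with DESeq2, 1 with the Y-linked level as covariate, 9 with a replicate block in 7 mice and 2 with that block in 9 mice, and 0 to 15 with single mice left out (15 without KO1, 4 without KO3, 1 without WT2). Genes with an unadjusted p below 0.05 numbered 453, and 972 without the filter, 844 with the block in 7 mice and 224 to 968 with single mice left out. The replicate numbers were not taken to pair the mice, since nothing in the sources used here says what equal numbers mark. Same-numbered mice deviated together with r of 0.37, 0.05, 0.36 and 0.10, and mice of different numbers with r from -0.44 to 0.28. The highest values were those of KO1 with WT1 and KO3 with WT3. With so few shared numbers, these values do not decide whether the mice are paired.

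Some fold changes changed sign, and the cause was not tested. With the block in 7 mice the log2 fold change was -0.019 for *Ryr2*, from 0.58, -0.018 for *Ryr3* and 0.086 for *Cacnb1* (and, with no change of sign, 0.0049 for *Cacna1d*, 0.041 for *Cacna1c* and 0.23 for *Cacng1*), and with the block in 9 mice 0.013 for *Cacnb1*. With the Y-linked covariate it was -0.038 for *Ryr1* and -0.046 for *Ryr3*, and in 9 mice 0.011 for *Cacnb1*. limma-voom gave 0.00026 for *Cacnb1*. Differences in mean log2 CPM were -0.0026 for *Ryr3* and -0.017 for *Cacnb1* on library totals without TMM, -0.014 for *Ryr3* within replicate blocks and -0.00015 for *Cacnb1* in 9 mice. In 9 mice the log2 ratio difference was -0.0054 for *Cacna1s* to *Cacna1c*. For *Stac3* to *Cacna1s* it kept its sign and passed an unadjusted 0.05, at -0.30 (exact permutation p = 0.0476, adjusted p = 0.381).

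With single mice left out, log2 fold changes ran from -0.096 to 0.17 for *Ryr1*, -0.17 to 0.15 for *Ryr3*, -0.015 to 0.45 for *Cacna1d*, -0.061 to 0.065 for *Cacnb1* and -0.12 to 0.037 for *Cacna2d1*. Differences in mean log2 CPM ran from -0.082 to 0.19 for *Ryr1*, -0.15 to 0.15 for *Ryr3*, -0.053 to 0.071 for *Cacnb1* and -0.11 to 0.040 for *Cacna2d1*. Log2 ratio differences ran from -0.034 to 0.10 for *Ryr1* to *Ryr3*, -0.91 to -0.17 for *Ryr1* to *Ryr2*, 0.0041 to 0.25 for *Cacna1s* to *Ryr1*, -0.21 to -0.11 for *Cacnb1* to *Cacna1s*, -0.016 to 0.15 for *Cacna1s* to *Cacna1c*, -0.34 to 0.15 for *Cacna1s* to *Cacna1d*, -0.11 to 0.025 for *Cacng1* to *Cacna1s* and -0.45 to -0.29 for *Stac3* to *Cacna1s*. Genes of the 10 whose genotypes did not overlap numbered 0 to 2 with single mice left out, where 5.03% to 12.3% of all genes did not overlap, and 1 on library totals without TMM, *Stac3*. *Stac3*, *Cacna1s*, *Cacna1c* and *Cacng1* kept the sign of their log2 fold change under all 19 alternatives. The 13 to 59 counts of *Ryr2* and 87 to 200 of *Cacna1d* limit what can be said of either gene.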
